A study of Homo sapiens with 9 samples.

Results

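Expression of 40 genes of the cilium, of intraflagellar transport and of ciliary Hedgehog signalling was described in human TC71 Ewing sarcoma cells recovered from mice, with all 40 found among 34830 rows that name a gene. The list was drawn up because IFT122 and TEKT2 had no counts in lung metastases, so the values of this pair in that site are what they were chosen by, and are given as a description with no test. The other 38 were listed by function, with results of these data already known. Per the series' design text, 100 TC-71 cells in Matrigel were placed under the flank skin of NSG mice, a severely immunodeficient strain. Tumour cells were sorted by flow cytometry once tumours reached 1.5 cm. The groups were bone marrow metastases (4 libraries), lung metastases (4 libraries) and the primary tumor (1 library). All are 1 cell line with no treatment in the labels, and the labels give neither the age of the mice, nor which libraries shared a mouse, nor the sorting marker. P-values therefore measure the spread between these libraries, which may be partly technical.

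A primary cilium is an antenna of microtubules that grows from the mother centriole of a resting cell. Cargo is carried along it by trains of intraflagellar transport (IFT) complexes: IFT-B trains move to the tip on kinesin motors, and IFT-A brings proteins back on a cytoplasmic dynein and admits membrane receptors. The BBSome is a coat that moves receptors out of the cilium, the transition zone is a gate at its base, and the Hedgehog receptor system of vertebrates works through the cilium. Tektins are filament proteins of the axoneme of motile cilia and sperm flagella. In sorted cells measured in bulk, fewer ciliated cells and less RNA per cell cannot be told apart.

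Levels are CPM, the deposited estimated counts scaled by library total and by the trimmed mean of M values (TMM), and log2 fold changes come from edgeR. Libraries held 14157878 to 17910246 counts in bone marrow, 11549404 to 13218346 counts in lung and 12352148 counts in the primary tumor. Lung replicate 3 stood apart, with a mean correlation of log2 CPM of 0.861 with the other metastasis libraries, against 0.877 to 0.901 for the rest. Human reads made up 78.6 ± 0.688% in bone marrow, 75.3 ± 1.97% in lung and 78.1% in the primary library, and mitochondrial ribosomal RNA reads 0.158 ± 0.0559% in bone marrow, 0.432 ± 0.0657% in lung and 0.0570% in the primary library (SD, n = 4 each for the metastases). Reads not aligned made up 18.94 to 20.32% in bone marrow, 20.37 to 24.65% in lung and 19.7% in the primary library. Bone marrow and lung libraries did not overlap in any of these measures, and their part in the results below was not tested. The summed level of 13 Ewing sarcoma markers was 2346 to 2648 CPM in bone marrow, 2064 to 2795 CPM in lung, with 2981 CPM in the primary library. Those of 11 leukocyte markers were 9.78 to 239.7 CPM in bone marrow, 0.508 to 22.6 CPM in the lung and 30.8 CPM in the primary library. Those of 8 red cell markers were 17.2 to 111.1 CPM in bone marrow, 3.63 to 172.3 CPM in the lung and 8.06 CPM in the primary library. Those of 9 lung epithelial markers were 21.3 to 87.7 CPM in bone marrow, 14.8 to 129.4 CPM in the lung and 39.4 CPM in the primary library. Those of 5 endothelial markers were 23.6 to 27.9 CPM in bone marrow, 25.3 to 30.1 CPM in the lung and 23.5 CPM in the primary library. Those of 6 fibroblast markers were 88.9 to 349.6 CPM in bone marrow, 152.3 to 398.9 CPM in the lung and 281.0 CPM in the primary library. Those of 3 measured nuclear RNAs were 2497 to 4870 CPM in bone marrow, 3420 to 4535 CPM in the lung and 5478 CPM in the primary library. Of the 13 Ewing sarcoma markers, 5 were higher in bone marrow and 8 lower. EWSR1 was at 385 ± 201 CPM in bone marrow, against 135 ± 38.5 CPM in lung, without overlap (DESeq2 adjusted p 0.0241, edgeR 0.360). Most of the endothelial sum was CDH5 in every library. Of the defining markers, CD74 stayed at or below 0.222 CPM, SFTPC at or below 0.745 CPM and SCGB1A1 at 0 in all 9 libraries, but other markers did not. LCP1, an actin-bundling protein of leukocytes, was at 39.9, 50.2, 233.2 and 8.15 CPM in bone marrow, against 5.26, 7.04, 0.497 and 0 CPM in lung, with 28.9 CPM in the primary library (DESeq2 adjusted p 0.00974, edgeR 0.450). LCP1 made up most of the leukocyte sum in every bone marrow library (233.2 of 239.7 CPM in replicate 3). The higher sums in bone marrow therefore describe mainly LCP1 and not leukocyte markers in general. PTPRC, the pan-leukocyte CD45, reached 3.63 CPM in bone marrow, against 14.3 CPM in lung, and EPCAM, an epithelial adhesion molecule, 77.7 CPM in bone marrow, against 115.1 CPM in lung. These marker rows are of human genes, while the hosts were mice, so they do not measure host cells directly. Mouse reads made up 7.52 ± 0.191% in bone marrow, 7.355 ± 0.496% in lung and 7.45% in the primary library. The part of other cells in the results below was not tested.

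Promoters are shown because RFX transcription factors, regulators of many ciliary genes, bind an X-box whose half-site reads GTTGCC. The RefSeq table (GRCh38.p14) held a window of 250 bases before to 50 bases after the start for 35 of the 40 genes. The half-site or its reverse complement GGCAAC lay in the windows of 14 of the 35, or 40%, against 16.2% of 15843 protein-coding genes with a window. The 14 were IFT27, IFT46, IFT74, IFT81, IFT88, IFT122, BBS1, BBS5, BBS10, TTC8, DYNC2H1, DYNC2LI1, TEKT1 and PTCH1. Windows of 300 bases follow, 5′ to 3′ on the plus strand, with the half-site in capitals, for IFT122 (chr3:129439974-129440273), which had no counts in lung, and for IFT81 (chr12:110124107-110124406) and IFT88 (chr13:20566907-20567206), a pair of IFT-B genes that carry the motif and kept counts in lung, though IFT81 held only 1 count in lung replicate 3.
IFT122: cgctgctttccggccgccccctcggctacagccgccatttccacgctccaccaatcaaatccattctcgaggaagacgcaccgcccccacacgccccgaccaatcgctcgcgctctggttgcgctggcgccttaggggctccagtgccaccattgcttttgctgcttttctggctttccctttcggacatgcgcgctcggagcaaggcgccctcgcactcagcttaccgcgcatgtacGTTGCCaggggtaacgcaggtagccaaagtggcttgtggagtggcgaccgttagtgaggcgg
IFT81: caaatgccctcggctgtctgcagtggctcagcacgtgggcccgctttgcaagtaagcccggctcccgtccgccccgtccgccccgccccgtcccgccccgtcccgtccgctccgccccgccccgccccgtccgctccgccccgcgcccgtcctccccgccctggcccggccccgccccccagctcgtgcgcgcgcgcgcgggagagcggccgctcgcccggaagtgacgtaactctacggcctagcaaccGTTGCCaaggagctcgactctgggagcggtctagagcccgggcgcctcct
IFT88: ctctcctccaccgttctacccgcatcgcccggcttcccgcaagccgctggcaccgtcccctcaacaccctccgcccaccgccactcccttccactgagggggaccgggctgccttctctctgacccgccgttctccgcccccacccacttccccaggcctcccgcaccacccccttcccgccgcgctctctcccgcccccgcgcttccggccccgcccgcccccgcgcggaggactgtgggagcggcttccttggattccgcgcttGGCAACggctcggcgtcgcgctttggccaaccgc
The motif begins 12 bases before the annotated start of IFT122, at the start itself in IFT81 and 16 bases after it in IFT88, there on the opposite strand. A match describes these letters and shows no binding.

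IFT122, a WD-repeat subunit of the IFT-A core (chromosome 3, 129440036 to 129520507, hg38), was detected in every bone marrow library and in no lung library. It stood at 14.9, 12.0, 3.54 and 12.8 CPM in bone marrow replicates 1 to 4, at 0 in each of the 4 lung libraries and at 6.37 CPM in the primary library. The bone marrow mean was 10.8 ± 4.99 CPM (SD, n = 4), from 645 counts. Having 0 counts over the 4 lung libraries allows up to 0.0579 CPM (3 counts over the group, counting error only). On that bound, which leaves out the spread between libraries, bone marrow was at least 187-fold higher than lung. The primary library was at least 110-fold higher than lung on the same bound. TEKT2 (chromosome 1, 36084075 to 36088275) was at 3.55, 12.5, 10.6 and 4.11 CPM in bone marrow, at 0 in each lung library and at 19.4 CPM in the primary library, above all 8 metastases. Its bone marrow mean was 7.70 ± 4.54 CPM, from 469 counts. On the same counting bound this mean was at least 133-fold above lung, and the primary library was at least 335-fold above lung. The groups did not overlap for either gene, and neither had a fraction of a count in lung in the deposited table.

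**Figure D1:**
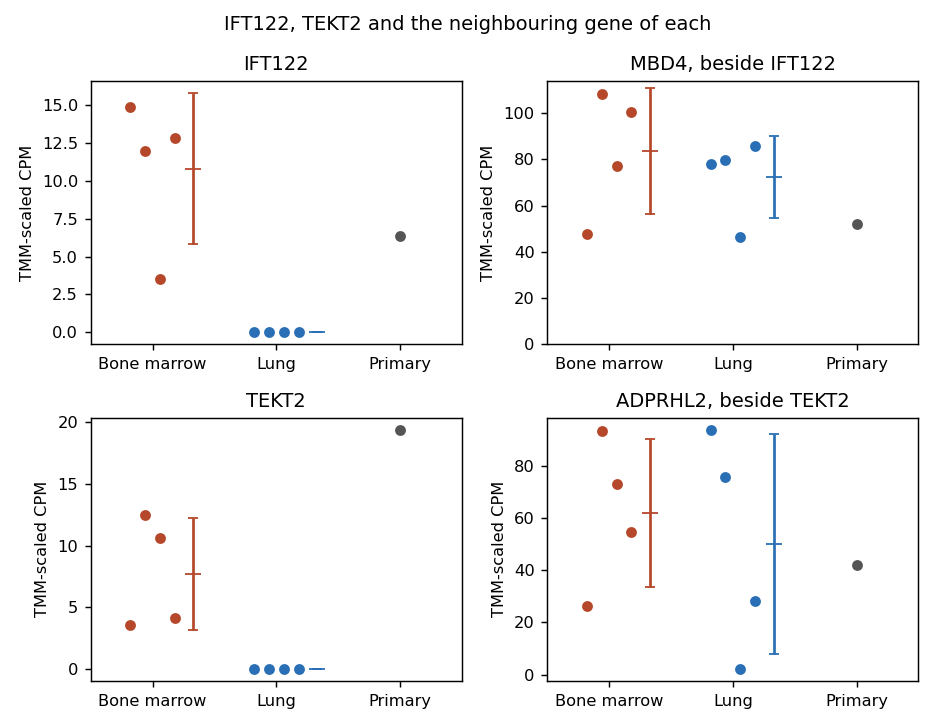
IFT122, TEKT2 and 1 neighbour of each, in TMM-scaled CPM per library (points), with the mean and SD over 4 libraries beside each metastasis group. Both cilium genes lie at 0 in all 4 lung libraries, while MBD4 and ADPRHL2 were detected in all 9 libraries.

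Neighbouring genes did not share the absence from lung. MBD4, a DNA glycosylase gene on the opposite strand whose exons overlap those of IFT122 by 144 bases at their starts, was at 83.4 ± 27.3 CPM in bone marrow, against 72.4 ± 17.8 CPM in lung, with 51.9 CPM in the primary library. Beside TEKT2, ADPRHL2, which removes ADP-ribose from proteins and lies 600 bases away, was at 62.0 ± 28.5 CPM in bone marrow, against 50.1 ± 42.3 CPM in lung, with 42.1 CPM in the primary library. AGO3, an Argonaute gene on the other side, was at 29.9 ± 12.1 CPM in bone marrow, against 24.0 ± 19.1 CPM in lung, with 55.2 CPM in the primary library. ADPRHL2 was low in lung replicate 3, at 2.15 CPM.

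The absence from lung did not extend to another member. Of the 38 other genes, 0 had no counts in all 4 lung libraries and 0 had none in all 4 bone marrow libraries, while 2.7% of 17042 tested genes were at 0 in all lung libraries and 1.26% at 0 in all bone marrow libraries. Without lung replicate 1, GLI2 would be at 0 in the remaining lung libraries, since it held 1 count there. The pattern of at least 10 counts in every bone marrow library and 0 in every lung library was found for 6 genes in all, or 0.0352% of those tested. Beside IFT122 and TEKT2 these were SOSTDC1, a secreted BMP and WNT antagonist, HECTD3, a ubiquitin ligase, DSCR8 and the clone-named RP4-539M6.19. They were listed after their values were seen and none is in the cilium lists used here. The opposite pattern held for 1 gene, or 0.00587%.

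Low counts in single libraries were more frequent. Fewer than 10 counts were found for 3, 8, 6 and 5 of the 38 genes in bone marrow replicates 1 to 4, for 5, 7, 11 and 7 in lung replicates 1 to 4 and for 4 in the primary library. As a share this was 7.89% to 21.1% in bone marrow, 13.2% to 28.9% in lung and 10.5% in the primary library, below the share of all tested genes in each library. Bone marrow and lung overlapped in this measure, and lung replicate 3 was highest for both sets of genes. Among the 23 other members that averaged at least 10 CPM over the 9 libraries, values under 1 CPM occurred 6 times, all in lung replicates 1 to 3. They were BBS2 in replicates 1 and 3, IFT80 and TTC8 in replicate 2, and IFT81 and TMEM67 in replicate 3. Over all 7320 genes at that level, values under 1 CPM made up 0.451% to 1.08% in bone marrow, 1.38% to 5.55% in lung and 0.505% in the primary library, so low values were more frequent in lung over the whole table. In lung replicates 1 to 4 such values were held by 1, 2, 3 and 0 of the 23 members. Over all genes the shares there were 1.94%, 1.38%, 5.55% and 3.48%. The members' share was thus the larger in replicates 1 to 3 and the smaller in replicate 4. This rests on few values and was not tested.

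**Figure D2:**
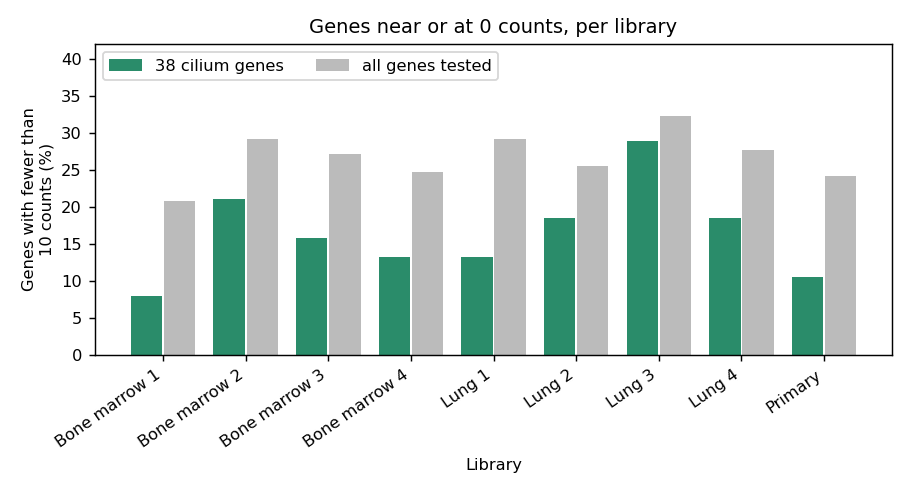
Share of the 38 other cilium genes and of all 17042 tested genes with fewer than 10 counts, in percent (vertical axis), per library. Lung replicate 3 holds the highest share of both, and the bone marrow and lung libraries overlap.

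Of the 38, 37 passed the count filter; TEKT1, another tektin, did not, with at most 2 counts in any library. GLI2 passed through the primary library alone and INPP5E through bone marrow alone. Over the 37, the edgeR quasi-likelihood test called 0 between bone marrow and lung, with Benjamini-Hochberg adjusted p from 0.441 to 0.988, where 1 of 17042 genes (0.00587%) was called. At an unadjusted p below 0.05 there were 5, of which 4 had more in bone marrow (BBS7, BBS10, DYNC2H1, SMO) and 1 had more in lung (RPGRIP1L), while 9.78% of all genes reached it. The list was made with this comparison known, so nothing is read from that count. DESeq2 called SMO and RPGRIP1L (adjusted p 0.0276 and 0.0339), where it called 2.75% of genes, and limma voom called 0, where it called 0.0352%. The DESeq2 share is of all 17042 genes, of which 13847 had a DESeq2 adjusted p, and 1 of the 37 members had none. Levels were higher in bone marrow for 23 and lower for 14, with a median log2 fold change of 0.36 over the 37 and of 0 over all genes. That median was 0.56 without bone marrow replicate 2 and 0.66 without lung replicate 4. INPP5E reached the filter in bone marrow only, which fixes its direction, and GLI2 in neither site. Over the 35 members that reached it in both sites, 21 were higher in bone marrow and 14 lower, with a median of 0.25.

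**Figure D3:**
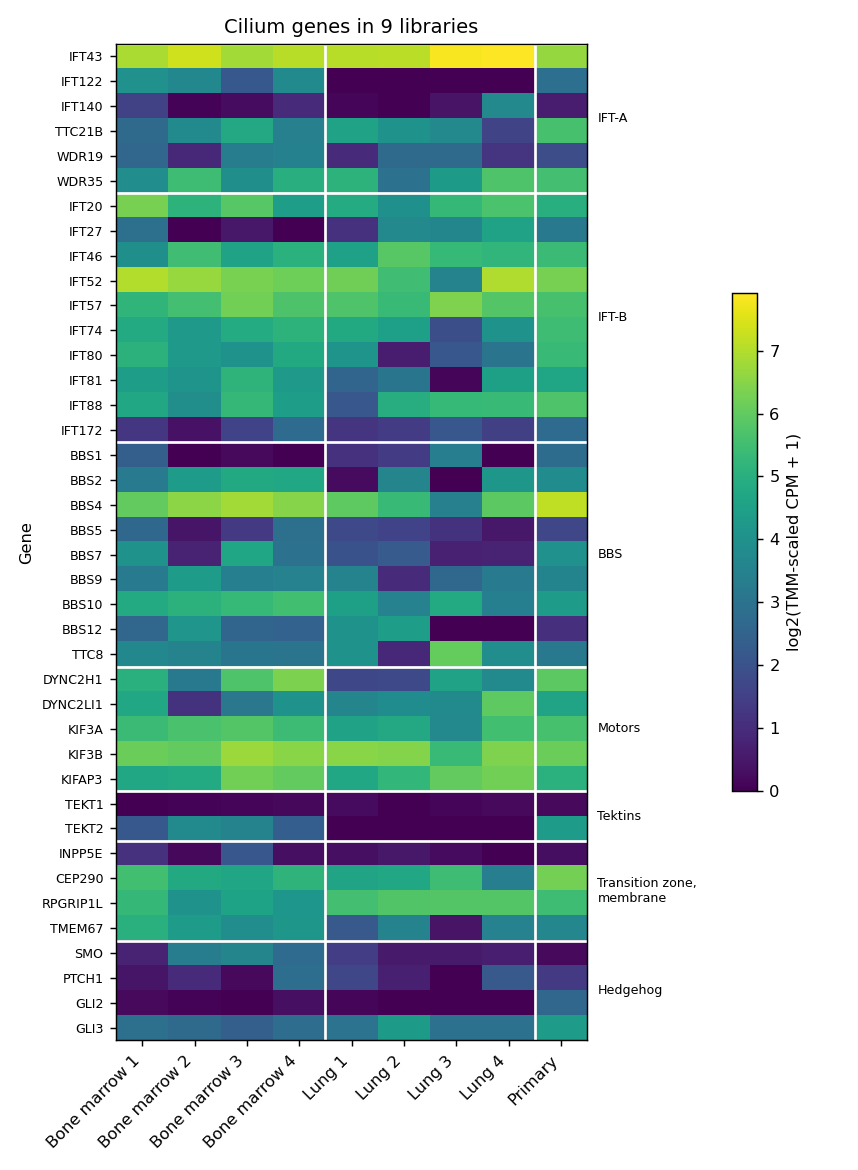
log2(TMM-scaled CPM + 1) of the 40 genes (rows, by role) in the 9 libraries (columns). IFT122 and TEKT2 are dark across all 4 lung columns. TEKT1, GLI2 and INPP5E are dark in most columns of both sites, and SMO is dark, though above 0, in the lung columns.

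The sites did not overlap for 4 of the 37, where 5.88% of all genes did not. Bone marrow was above lung for BBS4 and TMEM67 (2.82% of all genes) and lung above bone marrow for RPGRIP1L and GLI3 (3.06%). For 2 of them, TMEM67 and RPGRIP1L, the sites lay on opposite sides of the primary library, where 0.863% of all genes did so. The count was 8 without bone marrow replicate 1, 7 without bone marrow replicate 2, 7 without lung replicate 1, and 8 without both bone marrow replicate 1 and lung replicate 3.

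Among IFT-A genes other than IFT122, 2 of 5 were higher in bone marrow and 3 were lower, though TTC21B turned lower with scaling by library size alone. IFT43, a peripheral IFT-A subunit, was at 119, 161, 111 and 134 CPM in bone marrow, against 134, 136, 227 and 240 CPM in lung, with 101 CPM in the primary library. The primary library lay below all metastases and the sites overlapped (log2 fold change -0.49 ± 0.26, SE, edgeR adjusted p 0.526). TTC21B, the IFT139 subunit, was at 5.70, 12.8, 26.4 and 9.97 CPM in bone marrow, against 22.6, 15.5, 12.3 and 2.11 CPM in lung, with 47.8 CPM in the primary library. Its site means were alike (13.7 ± 8.95 CPM for bone marrow, 13.1 ± 8.50 CPM for lung), while the primary library was above all 8. WDR35, an IFT-A subunit built of WD repeats like IFT122, averaged 25.5 ± 14.2 CPM in bone marrow, against 27.8 ± 19.5 CPM in lung. WDR19, another such subunit, averaged 6.26 ± 4.18 CPM in bone marrow, against 3.38 ± 2.61 CPM in lung, and IFT140 was at most 1.92 CPM in bone marrow, against 0.0848, 0, 0.331 and 12.3 CPM in lung. IFT140 thus held counts of 1, 0, 4 and 170 in the lung libraries and was well detected in 1 of them only, while each of the other IFT-A genes apart from IFT122 held at least 10 counts in all 4.

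Bone marrow held the higher mean for 6 of 10 IFT-B genes and lung for 4. IFT80, a peripheral IFT-B subunit, was at 33.2, 18.2, 15.6 and 27.0 CPM in bone marrow, against 16.03, 0.563, 3.48 and 7.34 CPM in lung, with 39.0 CPM in the primary library. Only lung replicate 1 reached the bone marrow range (log2 fold change 1.78 ± 0.85, edgeR adjusted p 0.509, and 2.64 without that library); the annotation places 27.2% of its exonic length in another gene of the same strand, so its counts are uncertain. IFT81, which binds tubulin cargo together with IFT74, was at 19.99, 16.05, 34.7 and 18.4 CPM in bone marrow, against 5.01, 7.39, 0.0828 and 21.8 CPM in lung, with 24.7 CPM in the primary library. Lung replicate 4 was thus within the bone marrow range and lung replicate 3 held almost none. IFT74 itself was at 26.9 ± 6.62 CPM in bone marrow, against 16.7 ± 10.5 CPM in lung, where replicate 3 was lowest at 2.73 CPM. IFT88, whose loss in the mouse impairs cilium formation, was at 25.0, 14.2, 37.4 and 20.2 CPM in bone marrow, against 3.48, 29.6, 38.5 and 38.9 CPM in lung, with 52.2 CPM in the primary library. Its lowest library was lung replicate 1, a different one from that of IFT81 (log2 fold change -0.19 ± 0.67, edgeR adjusted p 0.953). IFT27, a small GTPase of the train, went the other way from IFT122, at 6.59, 0, 0.417 and 0 CPM in bone marrow, against 1.19, 12.3, 11.5 and 22.4 CPM in lung, though the ranges overlapped (edgeR adjusted p 0.603). IFT20, IFT46, IFT52 and IFT57 averaged 28.2 to 94.9 CPM in bone marrow, against 32.7 to 62.3 CPM in lung, and IFT172, the subunit at the turnaround of trains, 2.38 ± 2.39 CPM in bone marrow, against 2.03 ± 0.940 CPM in lung.

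Bone marrow held the higher mean for 6 of 9 BBS genes and lung for 3. BBS4, a BBSome subunit that binds centriolar satellites, was at 63.6, 92.3, 112.7 and 87.8 CPM in bone marrow, against 61.5, 38.9, 9.85 and 60.1 CPM in lung, with 141 CPM in the primary library. The sites were separated by the narrow gap between 63.6 CPM (lowest in bone marrow) and 61.5 CPM (highest in lung), which closed with scaling by library size alone, and the log2 fold change was 1.06 ± 0.51 (edgeR adjusted p 0.509). BBS10, a chaperonin-like protein that helps to assemble the BBSome, was at 27.5, 32.8, 38.7 and 44.9 CPM in bone marrow, against 21.8, 10.3, 27.9 and 9.59 CPM in lung, with 19.4 CPM in the primary library. Lung replicate 3 reached just above the lowest bone marrow library (log2 fold change 1.05 ± 0.46, edgeR adjusted p 0.508). BBS7, a beta-propeller subunit, was at 15.9, 0.732, 24.9 and 6.71 CPM in bone marrow, against 2.97, 3.87, 0.662 and 0.726 CPM in lung, with 15.1 CPM in the primary library, and bone marrow replicate 2 was as low as lung (log2 fold change 2.54 ± 1.08, edgeR adjusted p 0.508, and 1.91 without bone marrow replicate 3). BBS12, a second chaperonin-like protein, was at 5.11, 16.7, 5.003 and 4.56 CPM in bone marrow, against 15.4, 20.3, 0 and 0 CPM in lung, so it was undetected in lung replicates 3 and 4 but not in 1 and 2. BBS2 was absent from lung replicate 3 and at 0.170 CPM in replicate 1, but at 11.1 and 17.1 CPM in replicates 2 and 4. TTC8, the BBS8 subunit, averaged 9.38 ± 2.35 CPM in bone marrow, against 23.7 ± 28.0 CPM in lung, where replicate 3 held 64.6 CPM. BBS9, another subunit, averaged 12.0 ± 5.22 CPM in bone marrow, against 6.399 ± 4.29 CPM in lung. BBS1 shares 53.9% of its exonic length and BBS5 21.9% with another annotated gene of the same strand, and their counts, at most 9.36 and 6.52 CPM, are uncertain.

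**Figure D4:**
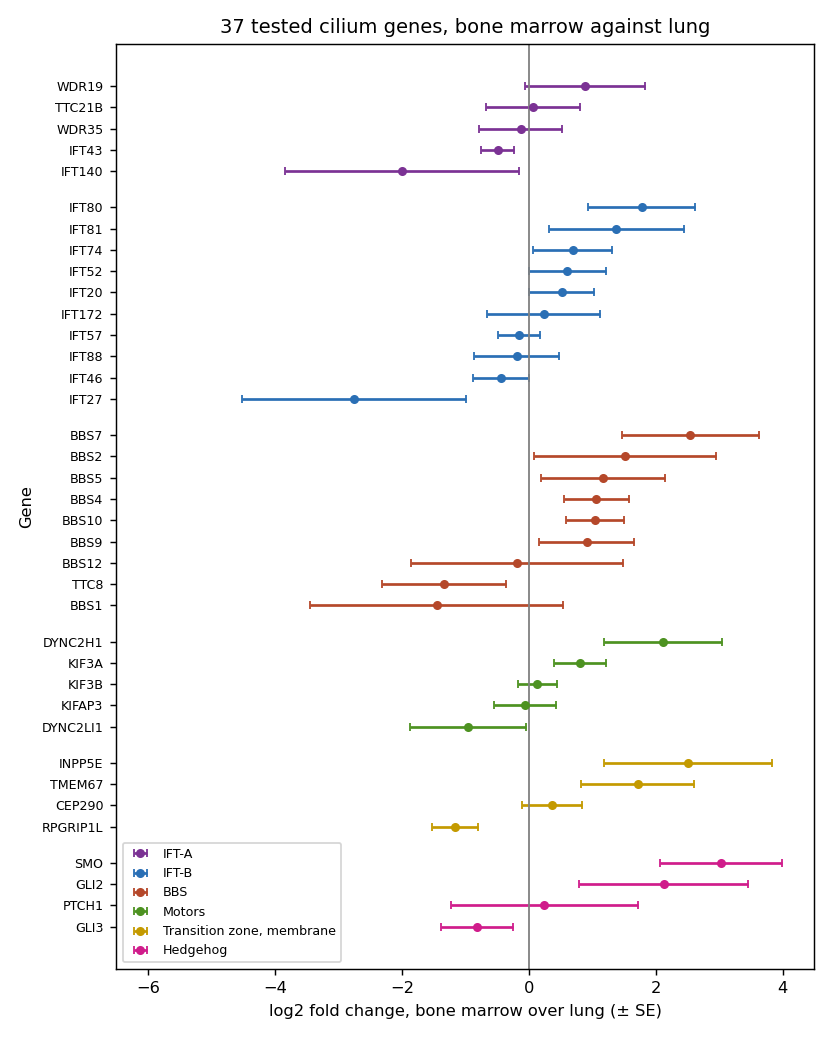
log2 fold change of bone marrow over lung with its SE (horizontal axis) for the 37 tested genes other than IFT122 and TEKT2, by role. Points lie on both sides of 0 in every role, and none passed the edgeR test.

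Among the motors, DYNC2H1, the heavy chain of the dynein that drives retrograde transport, was at 31.5, 8.12, 52.0 and 80.7 CPM in bone marrow, against 2.29, 2.32, 22.4 and 12.8 CPM in lung, with 60.1 CPM in the primary library. Bone marrow replicate 2 lay within the lung range (log2 fold change 2.12 ± 0.92, edgeR adjusted p 0.508, and 2.90 without lung replicate 3). Its light intermediate chain DYNC2LI1 did not follow it, at 12.6 ± 10.5 CPM in bone marrow, against 24.6 ± 24.6 CPM in lung. The anterograde kinesin subunits were detected in all libraries. KIF3A averaged 46.7 ± 6.31 CPM in bone marrow, against 26.6 ± 13.8 CPM in lung (log2 fold change 0.81 ± 0.41, edgeR adjusted p 0.515). KIF3B averaged 82.0 ± 18.9 CPM in bone marrow, against 74.6 ± 23.1 CPM in lung. The adaptor KIFAP3 was at 25.7, 27.5, 74.7 and 63.7 CPM in bone marrow, against 25.4, 36.5, 63.7 and 73.8 CPM in lung, with 32.4 CPM in the primary library. Replicates 3 and 4 of both sites were high and replicates 1 and 2 low, so the sites overlapped over nearly their whole range (edgeR adjusted p 0.983).

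At the transition zone, RPGRIP1L, a scaffold of the gate, had the smallest p of the 37. It was at 37.97, 15.5, 22.9 and 16.8 CPM in bone marrow, against 45.5, 53.1, 55.1 and 54.4 CPM in lung, with 42.6 CPM in the primary library. All lung libraries lay above all bone marrow libraries, with a log2 fold change of -1.16 ± 0.36 (edgeR adjusted p 0.441). TMEM67, a membrane protein of the same gate, was at 31.6, 19.8, 13.7 and 17.4 CPM in bone marrow, against 3.65, 10.6, 0.331 and 10.5 CPM in lung, with 11.7 CPM in the primary library, so these gate genes went opposite ways (log2 fold change 1.72 ± 0.89, edgeR adjusted p 0.517). CEP290, a large linker between microtubules and membrane, was at 45, 26.9, 24.0 and 34.3 CPM in bone marrow, against 23.4, 25.6, 42.9 and 9.51 CPM in lung, with 75.8 CPM in the primary library. The sites overlapped and the primary library was above all 8 (log2 fold change 0.36 ± 0.47, edgeR adjusted p 0.839). INPP5E, the phosphoinositide phosphatase of the ciliary membrane, reached the filter in 2 libraries and was at most 3.41 CPM in bone marrow, against 0.422 CPM in lung.

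Of the Hedgehog genes, SMO, the signal transducer that enters the cilium on pathway activation, was at 0.740, 9.21, 11.1 and 5.80 CPM in bone marrow, against 1.70, 0.493, 0.497 and 0.581 CPM in lung, with 0.153 CPM in the primary library. The other 3 bone marrow libraries exceeded all lung libraries, and replicate 1 did not (log2 fold change 3.03 ± 0.96, edgeR adjusted p 0.449, and 3.68 without lung replicate 1). GLI3, the main repressor among the GLI transcription factors, was at 6.59, 5.61, 4.24 and 6.06 CPM in bone marrow, against 7.13, 19.1, 6.71 and 6.90 CPM in lung, with 19.9 CPM in the primary library. The sites were separated by the highest bone marrow value of 6.59 CPM and the lowest lung value of 6.71 CPM, and 1 lung library was far above the others. The stricter filter of 5 CPM or more in 4 libraries or more closed that gap, and the log2 fold change was -0.30 without lung replicate 2 (all libraries: log2 fold change -0.82 ± 0.57, edgeR adjusted p 0.635). The receptor PTCH1, itself a pathway target, averaged 1.92 ± 2.87 CPM in bone marrow, against 1.62 ± 1.63 CPM in lung. GLI2, the main activator, held at most 4 counts in any metastasis library and 66 counts, or 5.06 CPM, in the primary library.

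**Figure D5:**
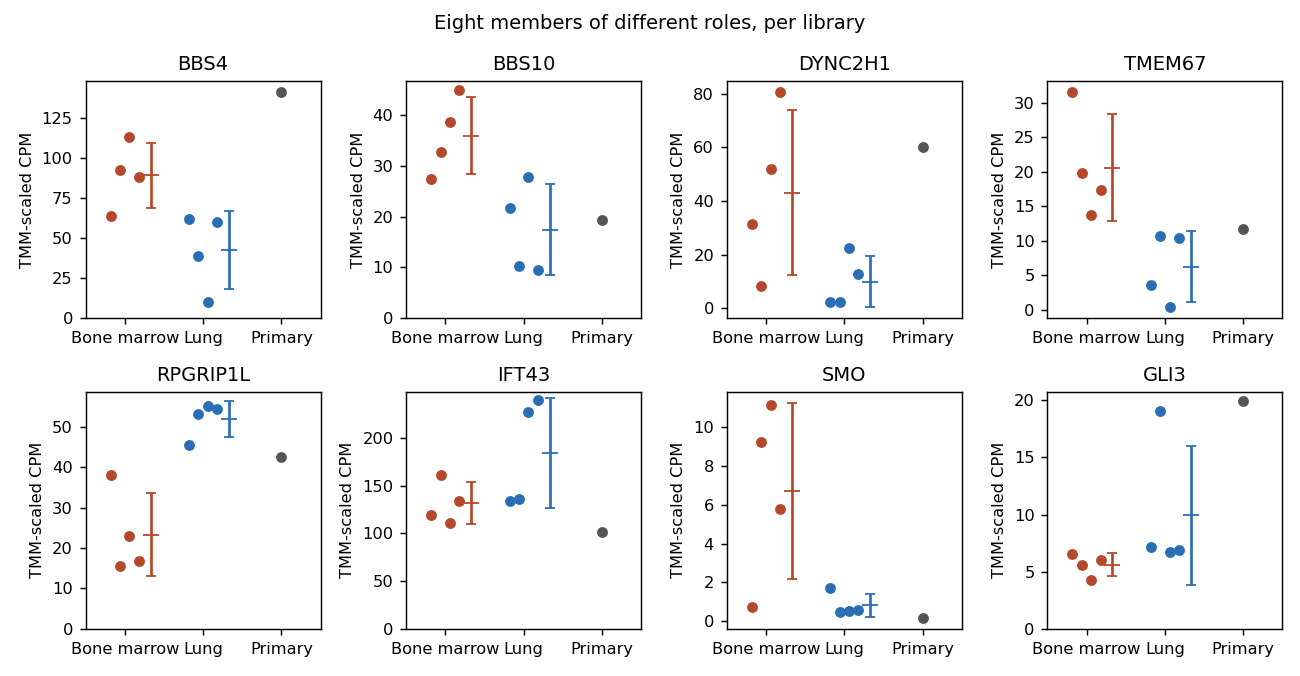
TMM-scaled CPM of 8 members per library (points), with the mean and SD over 4 libraries beside each metastasis group. BBS4 and TMEM67 are higher in bone marrow without overlap, RPGRIP1L and GLI3 are higher in lung without overlap, and the other panels overlap.

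Spread within a site was wide. Over the 23 members at 10 CPM or more, the coefficient of variation had a median of 37.6% in bone marrow and 60.3% in lung, beside 37.3% in bone marrow and 41.4% in lung over all 7320 genes at that level. It was lowest in lung for RPGRIP1L (8.56%) and highest there for BBS2 (119.4%), and in bone marrow it ran from 13.5% for KIF3A to 83.2% for DYNC2LI1.

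Each metastatic site was also set against the 1 primary library, which is assumed to vary as the metastases do and has no replicate check; both comparisons share that library. For lung against the primary library, 0 of 37 members passed (0% of all genes), DESeq2 and limma voom called 0 (0.98% and 0.0235% of all genes), and at an unadjusted p below 0.05 there were 3, all lower in lung and none higher, where 6.27% of genes reached it (4% lower, 2.27% higher). These were BBS4 (42.6 ± 24.1 CPM in lung, 141 CPM in the primary library), CEP290 (25.3 ± 13.7 CPM in lung, 75.8 CPM in the primary library) and GLI2, which reached the filter only through the primary library, so that its being lower in lung was fixed by the filter. Without the members that reached the filter on 1 side only (IFT140, SMO, GLI2) the count was 2. Of the 37, 14 were higher and 23 lower in lung, with a median log2 fold change of -0.54, while the median over all genes was 0.16. Without lung replicate 4 the members' median was -0.88. Over the 33 members that reached the filter on both sides, 12 were higher in lung and 21 lower, with a median of -0.71. For bone marrow against the primary library, 0 passed (0% of all genes) and DESeq2 and limma voom called 0 (0.417% and 0% of all genes). SMO was higher in bone marrow and GLI2 and GLI3 lower at an unadjusted p below 0.05, where 3.77% of genes reached it (1.61% higher, 2.16% lower), and the edgeR adjusted p was 1 for all of them. SMO reached the filter only through bone marrow and GLI2 only through the primary library, so the direction of both was fixed by the filter, and GLI3 was the 1 member that reached it on both sides. Of the 37, 18 were higher and 19 lower in bone marrow, with a median of -0.05, while the median over all genes was 0.17. Over the 33 members that reached the filter on both sides, 15 were higher in bone marrow and 18 lower, with a median of -0.15. The primary library lay above all 8 metastasis libraries for 8 of the 37, where 10.1% of all genes did so, and below them for 2, SMO and IFT43, where 7.56% did. The 8 were IFT74, IFT80, IFT88, TTC21B, BBS4, CEP290, GLI2 and GLI3. GLI2 reached the filter only through the primary library, so its place above the metastases was fixed by the filter. SMO reached the filter in metastases and not in the primary library, so it could not lie above all 8.

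Further genes of the pathway came from 10 lists: other IFT-B, BBSome, motor and transition zone genes, the basal body, the ciliary membrane, Hedgehog, ciliary transcription factors, tektins and motile cilia. They added 124 genes, of which 106 were tested. In edgeR 0 passed between bone marrow and lung (lowest adjusted p 0.359), while 6 were higher and 5 lower in bone marrow at an unadjusted p below 0.05, beside 6.11% and 3.66% of all genes. Of the 106, 17 reached the count filter in 1 site only, which fixes their direction, among them DNAH9 and MYB (bone marrow) and BOC and FBF1 (lung). Without these 4 the counts were 4 higher and 3 lower. DESeq2 called TTC30A, SCLT1, PCM1 and MYB, all higher in bone marrow, where it called 2.75% of all genes and 1.75% as higher, and limma voom called 0. Levels were higher in bone marrow for 55 and lower for 51, with a median log2 fold change of 0.07. Over the 86 that reached the filter in both sites, 45 were higher and 41 lower. Of the 124, 0 held 10 counts in every bone marrow library and none in lung. A further 6, KIF17, DISP1, DNAH9, DNAI1, DNAI2 and CFAP126, had no lung counts and held at most 1 count in at least 2 of the 4 bone marrow libraries, unlike IFT122 and TEKT2. Of these, DISP1 held 8.59 CPM in bone marrow replicate 1 alone and 4.37 CPM in the primary library, and DNAI1 held 1.40 CPM in bone marrow replicate 2 alone.

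By list, other IFT-B genes had 5 of 8 higher in bone marrow, and TTC30A, an IFT70 subunit with a near-identical copy TTC30B, had their smallest p, at 15.0 ± 1.64 CPM in bone marrow, against 3.63 ± 1.51 CPM in lung (edgeR adjusted p 0.359); reads of the copies may be split between them. Basal body genes had 11 of 19 higher in bone marrow, led by PCM1, the scaffold of centriolar satellites, at 47.6 ± 19.8 CPM in bone marrow, against 12.1 ± 5.92 CPM in lung, with 109.1 CPM in the primary library (edgeR adjusted p 0.360). Other Hedgehog genes had 8 of 12 lower in bone marrow (median -0.95), led by the co-receptor GAS1, at 22.9 ± 11.8 CPM in bone marrow, against 61.1 ± 20.1 CPM in lung (edgeR adjusted p 0.453). Between the sites, SHH, GLI1 and BOC reached the filter in lung only, and DISP1 and MYCN in bone marrow only. Their directions were fixed by the filter, so nothing is read from the count or the median of this list. Among ciliary transcription factors, 4 of 9 were higher, and MYB had the smallest p, at 3.45 ± 3.45 CPM in bone marrow, against 0.111 ± 0.172 CPM in lung. MYB and MCIDAS reached the filter in bone marrow only and RFX1 in lung only, which fixes their direction. FOXJ1, the master regulator of motile cilia, was at 3.16 ± 0.487 CPM in bone marrow, against 4.18 ± 1.08 CPM in lung, and RFX3, a ciliary RFX factor, at 12.7 ± 2.30 CPM in bone marrow, against 17.1 ± 11.8 CPM in lung, so neither was absent from lung. The summed level of 23 motile cilium genes was 14.2 to 27.5 CPM in bone marrow, 19.3 to 28.6 CPM in lung, with 29.9 CPM in the primary library; of 16 tested, 8 reached the filter in 1 site only, and of 5 that reached it in both, 2 were higher in bone marrow and 3 lower. The axonemal dynein DNAH9, which had the smallest p of that list and reached the filter only through bone marrow, was at 6.59, 2.87, 0 and 0.0652 CPM in bone marrow, against 0 in lung. The remaining tektins TEKT3, TEKT4 and TEKT5 were not tested, at a sum of at most 0.764 CPM in any library. Of the other lists, BBSome genes had 4 of 6 higher (ARL6 smallest p, adjusted 0.558), motors 2 of 8 (DYNLL1, 0.511), the transition zone 9 of 17 (IQCB1, 0.532) and the ciliary membrane 8 of 12 (RP2, 0.527) in edgeR.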

How the data were processed

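RNA of 9 libraries of sorted TC71 cells was measured, in 4 bone marrow, 4 lung and 1 primary tumor sample. The authors deposited estimated counts by gene symbol without depth scaling; the submitters' processing notes name Trim Galore, Salmon and the hg38 build. A second deposited table gives the percent of reads per species and the fraction of reads per counting category, with no account of how these were made. The kit was a low-input template-switching one, per the labels' protocols, so molecules lost before sequencing can give counts near 0. For strand use in counting: not given in the sources used here.

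Estimated counts were rounded. The 104 rows of reporters, selection genes and spike-in sequences, at most 0.0159% of a library, were left out. filterByExpr of edgeR 4.0.16 kept 17042 genes, which were scaled by TMM and fitted in 1 quasi-likelihood model (robust, 3 groups, all 9 libraries); calls are two-sided at a Benjamini-Hochberg adjusted p below 0.05. DESeq2 1.42.0 and limma 3.58.1 voom with quality weights were alternatives, as were other scalings, filters, left-out libraries and the replicate number as a block. DESeq2 gave an adjusted p to 13847 genes for bone marrow against lung. It gave one to 12403 genes for lung against primary and to 12990 for bone marrow against primary, and 3 of the 37 members lacked one in each of these. Its shares are of all 17042 genes, so they are lower than the shares of genes with an adjusted p. The SE is the log2 fold change over the square root of F. The fit was first tested on simulated data. The 36 library pairs differed beyond sampling noise (lowest chi-square per degree of freedom 79.9). Coordinates and exons are from GENCODE release 29 (hg38).

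The members and lists were chosen with earlier results of these data known. Any member may be named; values per library go to IFT122, TEKT2, the smallest and largest p of each role with an average log2 CPM of 2 or more, and members with no overlap. Of the other lists, the member with the smallest p is named. BBS10 and SMO, the fold changes against the primary library and other values were chosen after they were seen.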

Additional observations from a re-analysis of the deposited data

Results flagged for a closer look

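In groups of 4 libraries, 74 groups of members were examined and 11 held a library far from the others. Chance flags about 1 in 20 where values follow a normal distribution, which CPM values need not do. The share over all genes was not computed, so nothing is read from the count. In bone marrow, replicate 1 was far above the others for IFT27 (6.59 CPM, next 0.417) and BBS1 (4.29 CPM, next 0.139), replicate 2 for BBS9 (19.8 CPM, next 10.3) and BBS12 (16.7 CPM, next 5.11), and replicate 4 for PTCH1 (6.19 CPM, next 0.976). In lung, replicate 4 was far above for IFT140 (12.3 CPM, next 0.331) and DYNC2LI1 (61.4 CPM, next 13.4), replicate 1 for SMO (1.70 CPM, next 0.581), and replicate 2 for GLI3 (19.1 CPM, next 7.13). KIF3B was far below in lung replicate 3 (40.3 CPM, next 82.1). GLI2 in lung replicate 1 (0.0848 CPM, the others 0) is a single count, and nothing is read from it.

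For 2 of the 37 tested members, where 0.863% of all genes did so, every library of one site lay on the opposite side of the primary library from every library of the other. RPGRIP1L averaged 23.3 CPM in bone marrow, against 52.0 CPM in lung, with 42.6 CPM in the primary library, and TMEM67 averaged 20.6 CPM in bone marrow, against 6.27 CPM in lung, with 11.7 CPM in the primary library. This placing was not tested; both sites share 1 primary library.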

How the results depend on the processing

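The count of 0 members called in edgeR held in all 3 comparisons under every edgeR scaling, filter and left-out library tried, and with limma voom. DESeq2 called 2 for bone marrow against lung, SMO (log2 fold change 3.05) and RPGRIP1L (-1.17). The replicate number, shared by both sites, was tried as a block: 0 were called, the median was 0.50, and IFT88 (0.0362) and BBS12 (2.53) reversed. A separate pairing check gave -0.056 to 0.037 for same-numbered libraries. These values are not the plain correlations of log2 CPM between libraries given above. They cannot show whether same-numbered libraries shared a mouse.

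The median log2 fold change for bone marrow against lung was 0.54 with limma voom, 0.29 without both bone marrow replicate 1 and lung replicate 3, and 0.34 to 0.66 with single libraries left out. For lung against the primary library it was -0.83 with limma voom, -0.70 with a stricter filter (5 CPM or more in 4 libraries or more) and -0.88 to -0.40 with single libraries left out. For bone marrow against the primary library it was -0.40 with limma voom and -0.29 with that filter, and -0.14 to -0.02 with single libraries left out. Members with no overlap numbered 4 to 8 with single libraries left out, and 8 without both bone marrow replicate 1 and lung replicate 3, a setting chosen after seeing the data. Members at 0 in all lung libraries numbered 0 to 1.

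Fold changes near 0 changed sign. TTC21B was at -0.0092 with library size alone and -0.0391 with the stricter filter. With limma voom IFT88 was at 0.27, BBS12 at 2.39 and KIFAP3 at 0.13, and without both libraries KIFAP3 was at 0.28. With single libraries left out TTC21B ran from -0.47 to 0.49, IFT88 from -0.54 to 0.0178, BBS12 from -0.87 to 0.61 and KIFAP3 from -0.35 to 0.19. The causes were not tested. Of 365 values of single members under an alternative, 345 kept their direction and side of the threshold. In these low-input libraries a member at a few counts cannot be told from one absent.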
